A study of Mus musculus and Homo sapiens with 22 samples.

Results

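The 38 genes described here encode nuclear receptors, and they were taken as a fixed list of mouse symbols, with the uppercase symbol used for human. All 38 were found among the 21938 protein-coding genes of the mouse annotation and among the 20033 of the human annotation. A peak was assigned to a gene when its summit lay within 1 kb of any transcription start site (TSS) of the gene, elsewhere in its body, or within 50 kb of either end. By this rule 474 of 50159 liver peaks, 276 of 40531 peaks of mouse embryonic fibroblasts (MEFs) and 108 of 14369 peaks of Hep3B cells belonged to nuclear receptor genes.

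Nuclear receptors are transcription factors that carry a zinc finger domain for DNA and, in most cases, a pocket for a small lipophilic ligand such as a steroid, thyroid hormone, a retinoid, a fatty acid or a bile acid. Many bind the hexamer AGGTCA or a close variant of it, alone or repeated, and a large group pairs with the retinoid X receptors. In the liver they set lipid, glucose, bile acid and drug metabolism. PROX1 is a homeodomain factor of hepatocytes and lymphatic endothelium that is also known as a corepressor of receptors such as HNF4A, LRH-1 (Nr5a2) and ERR alpha (Esrra).

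PROX1 occupancy was read by CUT&RUN, where a nuclease is brought to chromatin by an antibody against the protein of interest and the fragments it frees are sequenced. The liver groups came from wild-type C57BL/6J mice aged 2 to 3 months, with 5 samples given a PROX1 antibody and 5 given IgG, so endogenous PROX1 was read, in nuclei from homogenized livers that are labelled as hepatocyte. The MEF groups came from C57BL/6N embryos and carried lentiviral rtTA and tetO-FLAG-mmProx1, and the Hep3B groups, an established human hepatocellular carcinoma line made stable by puromycin selection, carried pLIX-Puro-hsPROX1. Both were kept in 2 μg/ml doxycycline for 2 days and gave 3 FLAG and 3 IgG samples each, so their IgG samples also overexpressed the factor. Tissue, antibody and source of PROX1 cannot be told apart in any comparison with liver.

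Each of the 3 deposited lists pools the antibody samples of its group, so there is no spread between replicates, depth per sample is unknown, and no test was run on any comparison. All values below describe these lists. Peaks were ranked by the −log10 p of their summit. Its percentile is the share of the same list at a lower value, because the values themselves were not normalized between lists. The lists also began at different floors, with a lowest summit −log10 p of 6.09 in liver, 3.33 in MEFs and 3.93 in Hep3B. All 8 hepatocyte marker genes examined had a promoter peak in liver and 1 of 8, Apob, in MEFs. The 8 fibroblast markers all had a promoter peak in MEFs, while 1 of 8, Fn1, had it in liver. Of 6 markers of the carcinoma line, GPC3 alone had a promoter peak in Hep3B. These counts are occupancy and say nothing of expression.

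The sequences below show the bases within 50 bp of a summit on the forward strand of GRCm38 (mm10) or hg38, cut short where a UTR began. Here capitals mark matches, on either strand, to AGGTCA, to its extended form TCAAGGTCA known from the ERR and NR5A receptors, to ATTGG (the CCAAT box), to ATCGAT, and to AAGACG and AAGGCG, which are parts of the PROX1 consensus. The first 4 are the liver member peaks that held TCAAGGTCA, a set chosen after their values were seen.
Ppara, promoter of an internal start, liver, chr15:85771802-85771902: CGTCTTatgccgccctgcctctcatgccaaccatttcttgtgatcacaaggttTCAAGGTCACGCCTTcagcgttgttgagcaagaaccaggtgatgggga
Rara, promoter of an internal start, liver, chr11:98937093-98937193: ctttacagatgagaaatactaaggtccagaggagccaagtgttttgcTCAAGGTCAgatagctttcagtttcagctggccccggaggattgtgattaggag
Esr1, upstream flank, liver, chr10:4586802-4586902: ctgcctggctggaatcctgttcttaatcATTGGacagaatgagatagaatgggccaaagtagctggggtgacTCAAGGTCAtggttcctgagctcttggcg
Nr1h3, upstream flank, liver, chr2:91216201-91216301: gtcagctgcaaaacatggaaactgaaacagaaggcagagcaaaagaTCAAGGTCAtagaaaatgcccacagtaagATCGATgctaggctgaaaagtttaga
In Ppara, which encodes the fatty acid receptor PPAR alpha, the extended hexamer was followed directly by the reverse complement of AAGGCG, and the reverse complement of AAGACG stood at the edge of the window.

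The 3 member peaks that rank highest in the liver list follow, because they are the strongest liver sites in reach of a receptor gene.
Nr1i3, downstream flank within an intron of Fcer1g, liver, chr1:171232548-171232648: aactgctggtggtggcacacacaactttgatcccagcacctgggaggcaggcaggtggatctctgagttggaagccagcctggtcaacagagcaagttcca
Rora, intron, liver, chr9:69339356-69339456: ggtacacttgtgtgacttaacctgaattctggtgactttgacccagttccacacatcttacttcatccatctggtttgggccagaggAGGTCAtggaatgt
Rxra, upstream flank, liver, chr2:27626743-27626843: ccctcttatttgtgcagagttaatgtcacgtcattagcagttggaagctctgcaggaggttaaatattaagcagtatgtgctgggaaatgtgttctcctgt
Of the bases around the summit near Nr1i3, 97% are soft-masked as repeats in the reference, against 0% in the windows of Rora and Rxra. Among all liver member peaks, 24 of 474 windows (5.06%) were masked over at least 50% of their bases, beside 6.49% of the whole list.

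The 3 strongest member peaks of the MEF list are shown with the next promoter peak, that of Rara. It was added after its value was seen, because the 3 leading MEF promoters, of Nr1h2, Rara and Nr3c2, each held ATTGG. Of all MEF promoter peaks at receptor genes, 10 of 53 (18.9%) held these letters, beside 16.3% of all MEF summits.
Nr1h2, promoter, MEFs, chr7:44553404-44553504: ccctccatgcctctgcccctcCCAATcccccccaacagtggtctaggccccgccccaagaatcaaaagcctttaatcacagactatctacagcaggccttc
Nr1h2, flank at the promoter of Pold1, MEFs, chr7:44548848-44548939: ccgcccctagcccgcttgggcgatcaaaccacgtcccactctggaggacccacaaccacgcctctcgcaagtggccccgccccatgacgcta
Nr1h3, flank at the promoter of Ddb2, MEFs, chr2:91237051-91237151: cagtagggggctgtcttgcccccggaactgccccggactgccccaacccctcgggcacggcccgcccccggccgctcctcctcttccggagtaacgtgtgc
Rara, promoter of an internal start, MEFs, chr11:98937579-98937679: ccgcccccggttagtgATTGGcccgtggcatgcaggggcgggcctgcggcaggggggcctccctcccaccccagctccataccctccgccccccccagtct
In Hep3B, the strongest member peaks were the promoter of ESRRA, a flank peak of RXRB and the promoter of RXRB, whose summit lies in a UTR of SLC39A7 and is not shown.
ESRRA, promoter, Hep3B, chr11:64305394-64305494: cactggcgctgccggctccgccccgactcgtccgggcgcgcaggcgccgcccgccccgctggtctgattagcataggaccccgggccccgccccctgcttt
RXRB, flank nearest to VPS52, Hep3B, chr6:33249356-33249456: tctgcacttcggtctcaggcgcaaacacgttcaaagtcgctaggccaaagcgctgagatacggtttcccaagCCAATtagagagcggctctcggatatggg

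PROX1 peaks were found at receptor promoters in all 3 lists, and at the most receptor genes in MEFs in the lists as deposited. The order was not firm. Equal numbers of top peaks left 20 receptor genes with a promoter peak in MEFs (all genes 34.7%) and 20 in Hep3B (45.2%). The liver count was then 9 (6.26%). At the area floor of the liver list, MEFs and liver had 22 each (46% and 28.3%), and Hep3B had 14 (27.7%). Equal counts thus stood beside unequal shares of all genes. In liver, 22 of 38 receptor genes (57.9%) had a promoter peak, beside 28.3% of all protein-coding genes. In MEFs the count was 28 of 38 (73.7%), beside 56.5%, and in Hep3B 20 of 38 (52.6%), beside 45.2%. A gene body peak was present in 19 receptor genes in liver (background 27.8%), in 20 in MEFs (background 27.6%) and in 10 in Hep3B (background 11.0%). With the 50 kb flanks included, 31 receptor genes had a peak in liver (background 69.2%), 36 in MEFs (background 81.3%) and 30 in Hep3B (background 71.9%). The shares of receptor genes were above the background in each of these 9 counts, by the widest margin at liver promoters and by the narrowest where the flanks were included in Hep3B.

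Receptor genes differ from the average gene in ways that move with these counts. Their median length was 52.7 kb in mouse and 69.7 kb in human, against 17.4 and 27.5 kb over all protein-coding genes, and they had a median of 6 annotated TSSs in mouse and 8 in human, against 3 and 5. With the most 5′ TSS of each gene alone, 14 receptor genes kept a promoter peak in liver (background 23.5%), 24 in MEFs (51.4%) and 14 in Hep3B (39.2%). The Hep3B share of receptor genes, 14 of 38, was then below its background. Among genes of 100 kb or more, a gene body peak was found in 10 of 12 receptor genes in liver (background 62.5%), 10 of 12 in MEFs (background 76.4%) and 6 of 17 in Hep3B (background 27.0%). The part of length and TSS number in the counts was not tested further.

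**Figure D1:**
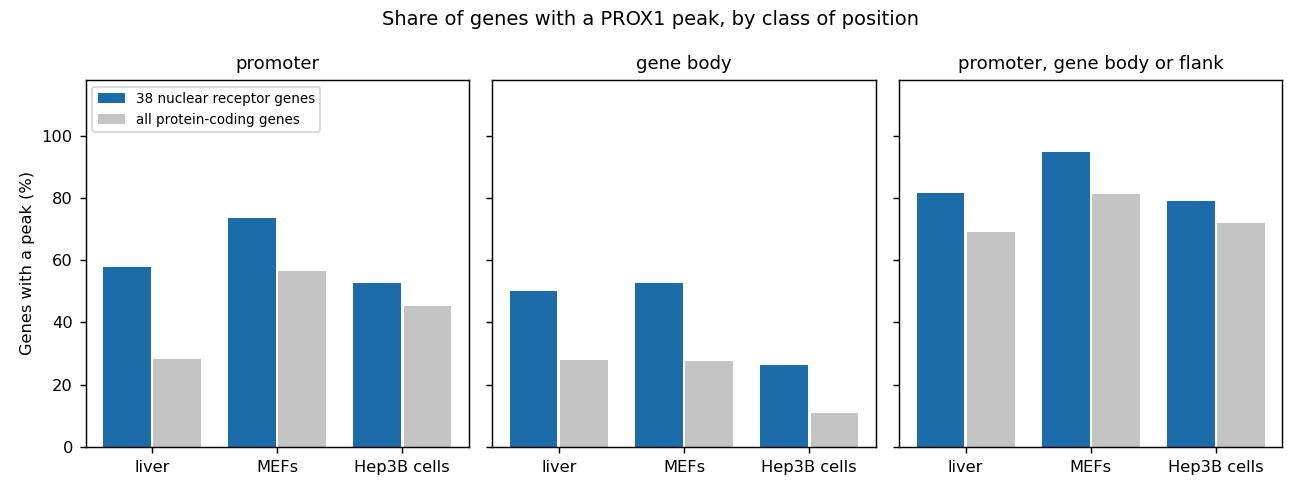
Share of the 38 nuclear receptor genes (blue) and of all protein-coding genes (grey) with a PROX1 peak at the promoter, in the gene body, or in either or the 50 kb flank, in percent, for the 3 lists. The blue bars stand above the grey ones throughout, with 57.9% against 28.3% at liver promoters and 52.6% against 45.2% at Hep3B promoters.

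Promoter peaks in all 3 lists were found at 13 receptor genes, or 34.2% of them, where 23.3% of the symbols present in both annotations had such peaks. The 13 were Nr3c1, Nr3c2, Thrb, Rara, Rarb, Ppard, Nr1h3, Esrra, Esrrg, Nr4a2, Nr4a3, Rora and Nr6a1. In the mouse lists, 18 receptor genes had a promoter peak in both liver and MEFs (background 23.8%), 10 in MEFs and not in liver (background 32.7%) and 4 in liver and not in MEFs (background 4.43%). These 4 were Nr1i2 and Nr1i3, the xenobiotic receptors PXR and CAR, Nr5a2, which encodes the bile acid and cholesterol regulator LRH-1, and Rxrg. NR5A2 also had a promoter peak in Hep3B. Promoter peaks in MEFs alone were found at Esr2, Vdr, Nr4a1 and Rorb, with low ranks at Esr2 (percentile 14) and Vdr (percentile 12.2). No promoter peak in any list was found at 6 receptor genes, Pgr, Hnf4g, Esrrb, Nr5a1, Nr2e1 and Nr2e3. The shares of all genes with a promoter peak in MEFs alone or in no list were not counted.

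The class of position differed between the lists, for receptor genes and for all genes alike. Of the peaks assigned to receptor genes, 41 lay at promoters, 290 in gene bodies and 144 in flanks in liver, where 1 peak was in the flank of 2 receptor genes. The MEF numbers were 53, 68 and 156, with 1 peak in the reach of 2 genes, and those of Hep3B 28, 23 and 58, again with 1 such peak. Promoters thus held 8.65%, 19.2% and 25.9% of receptor peaks in liver, MEFs and Hep3B (all peaks assigned to genes 18.9%, 38.8% and 65.2%). Gene bodies held 61.2%, 24.6% and 21.3% (all 54.5%, 35.7% and 18.7%), and flanks 30.2%, 56.2% and 52.8% (all 26.6%, 25.4% and 16.1%). The shares over all peaks were not counted in the same way. There, a peak at the promoter of any gene counted as promoter. Receptor peaks were classed by the receptor gene alone, so those at the promoter of another gene stayed in body or flank. The differences between receptor and all peaks can therefore not be read as a preference for a class. Body peaks were intronic in 281 of 290 cases in liver, 67 of 68 in MEFs and 22 of 23 in Hep3B. Flank peaks often belonged elsewhere. Of these, 42 of 144 in liver, 61 of 156 in MEFs and 35 of 58 in Hep3B lay at the promoter of another protein-coding gene, and the nearest protein-coding TSS was that of the receptor gene for 49, 37 and 9.

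**Figure D2:**
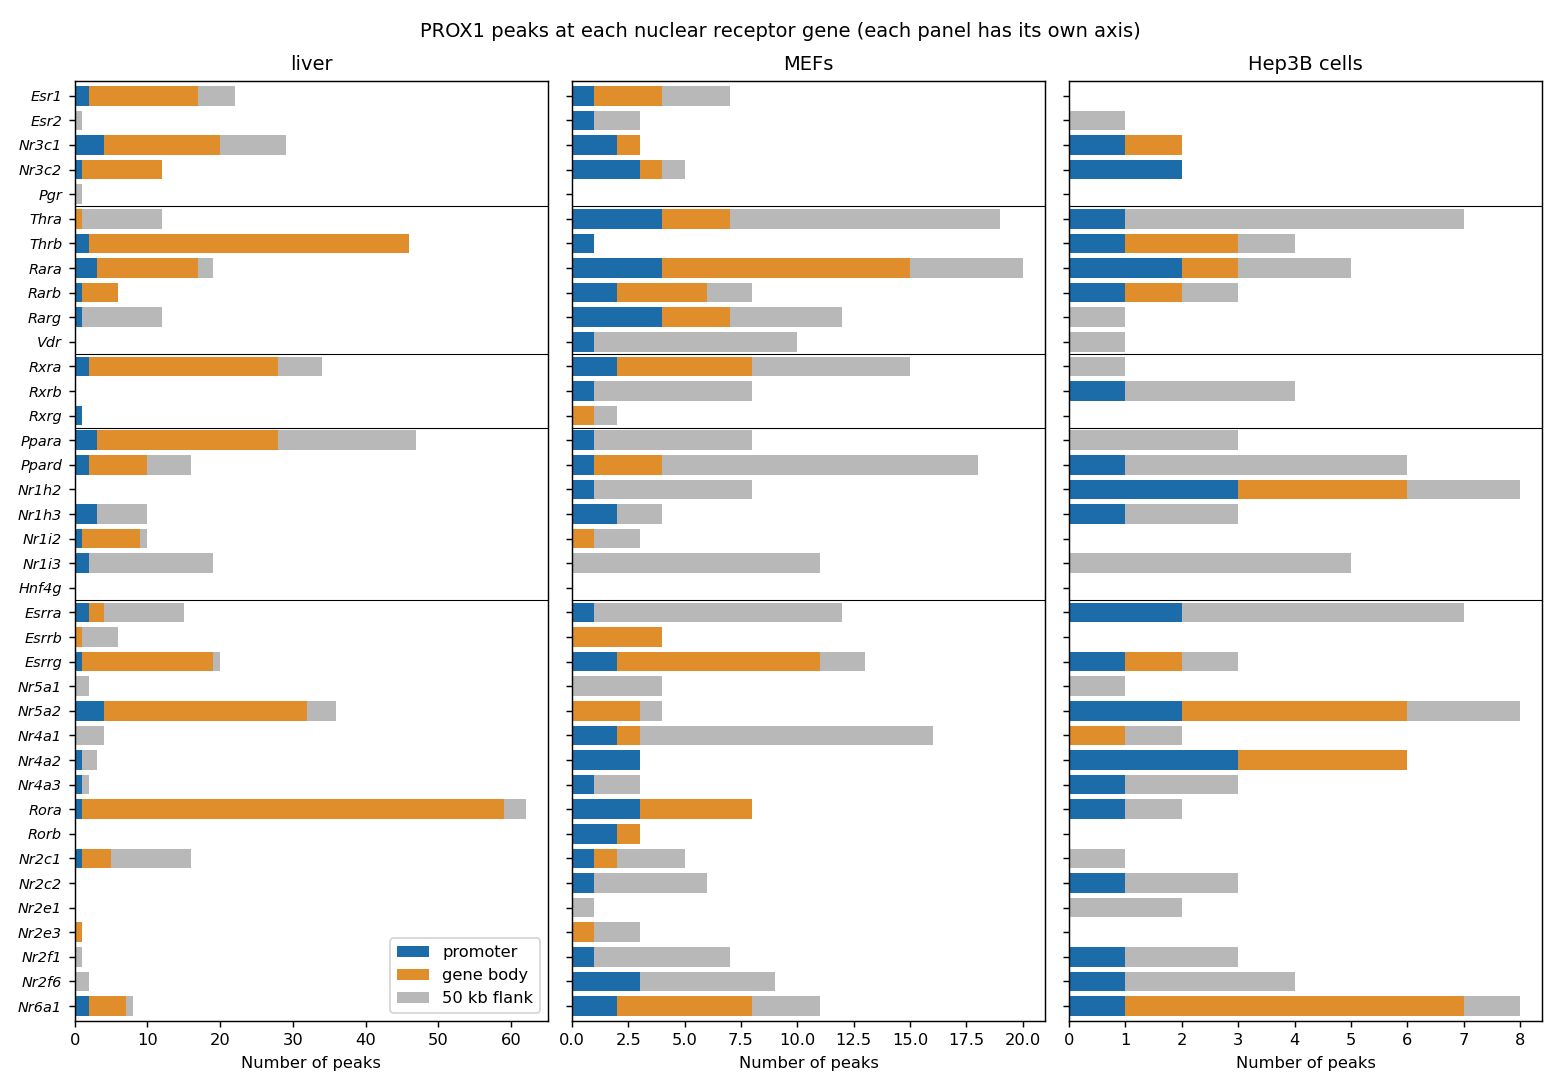
Number of PROX1 peaks at each of the 38 receptor genes in liver, MEFs and Hep3B, split into promoter (blue), gene body (orange) and 50 kb flank (grey), with horizontal lines between steroid hormone receptors, thyroid hormone, retinoic acid and vitamin D receptors, retinoid X receptors, lipid and xenobiotic sensors, and orphan receptors. The axes differ between panels. Rora reached 62 peaks in liver, 8 in MEFs and 2 in Hep3B, and Hnf4g had none in any list.

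Liver peaks were dense inside a few receptor genes. Rora, which encodes ROR alpha, a receptor of the circadian and lipid programmes, held 58 gene body peaks in liver, 3rd among all protein-coding genes, and 5 in MEFs. Thrb, the thyroid hormone receptor beta of hepatocytes, held 44 in liver, 14th among all genes, and 0 in MEFs. Nr5a2 held 28 and 3, Rxra, the main retinoid X receptor of liver, 26 and 6, Ppara 25 and 0, and Esrrg, the gene of ERR gamma, 18 and 9. Together these 6 genes, taken as those with the most body peaks in liver, carried 199 of the 290 liver body peaks (68.6%) and 23 of the 68 MEF body peaks (33.8%). Choosing them by liver counts in itself favours the liver share. Nr3c1, the glucocorticoid receptor gene, followed with 16 in liver and 1 in MEFs.

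Long genes offer more room, so peaks were also counted per 100 kb of gene. Over all receptor genes pooled, body peaks came to 6.17 per 100 kb in liver, against 2.41 over all protein-coding genes. The same values were 1.45 and 1.3 in MEFs and 0.382 and 0.231 in Hep3B. Among the 2492 mouse genes of 100 kb or more, Nr5a2 ranked 13th in liver with 23.8 peaks per 100 kb, Nr3c1 68th with 14.7, Thrb 114th with 11.6 and Rora 245th with 7.9. Rora therefore led by number and less so by density. In MEFs, the receptor genes of this length together had 0.982 body peaks per 100 kb, against 1.15 over all genes this long. Some shorter receptor genes had higher densities still, with 36.9 per 100 kb in Ppara, 30.1 in Rxra and 29.7 in Rara in liver. Others had 0, among them Nr1h3, Nr1i3, Rarg and Rxrg. Genes below 100 kb were not ranked against genes of like length.

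**Figure D3:**
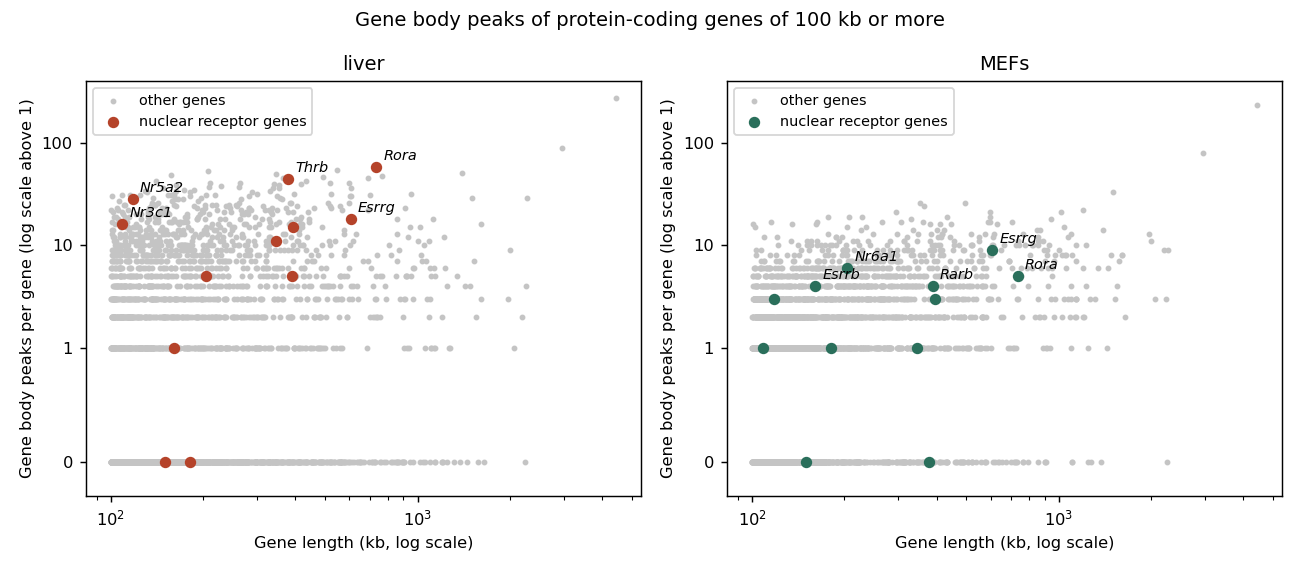
Gene body peaks of each protein-coding gene of 100 kb or more against gene length (log scales, the vertical one above 1), in liver and MEFs, with nuclear receptor genes in colour and 5 of them named in each panel. In liver, Rora (58) and Thrb (44) lie near the upper edge of the cloud for their length, and in MEFs they have 5 and 0.

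The arrangement along these genes was not even. In Rora, the median liver body peak lay 627 kb into the 734 kb gene, and 32 of 58 (55.2%) lay in the last 20% of its length. Their summits ranged in −log10 p from 7.69 to 25.9 with a median of 13.9, and 10 were in the top 10% of the list. In Thrb the peaks ran from 21.3 to 336 kb after the gene start, with values from 7.75 to 23.3, a median of 13.5 and 13 in the top 10%. The body peaks of Ppara stopped at 52.8 kb of its 67.8 kb. Overlap with MEF peaks was at the low level of the whole list, where 9.13% of all liver body peaks overlapped one. Over these 6 genes it was 13 of 199 (6.53%). In liver 4 of 58 Rora body peaks, 0 of 44 in Thrb, 2 of 28 in Nr5a2, 6 of 26 in Rxra, 0 of 25 in Ppara and 1 of 18 in Esrrg overlapped a MEF peak by at least 1 bp. In Rara, a retinoic acid receptor gene, 10 of 14 overlapped.

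**Figure D4:**
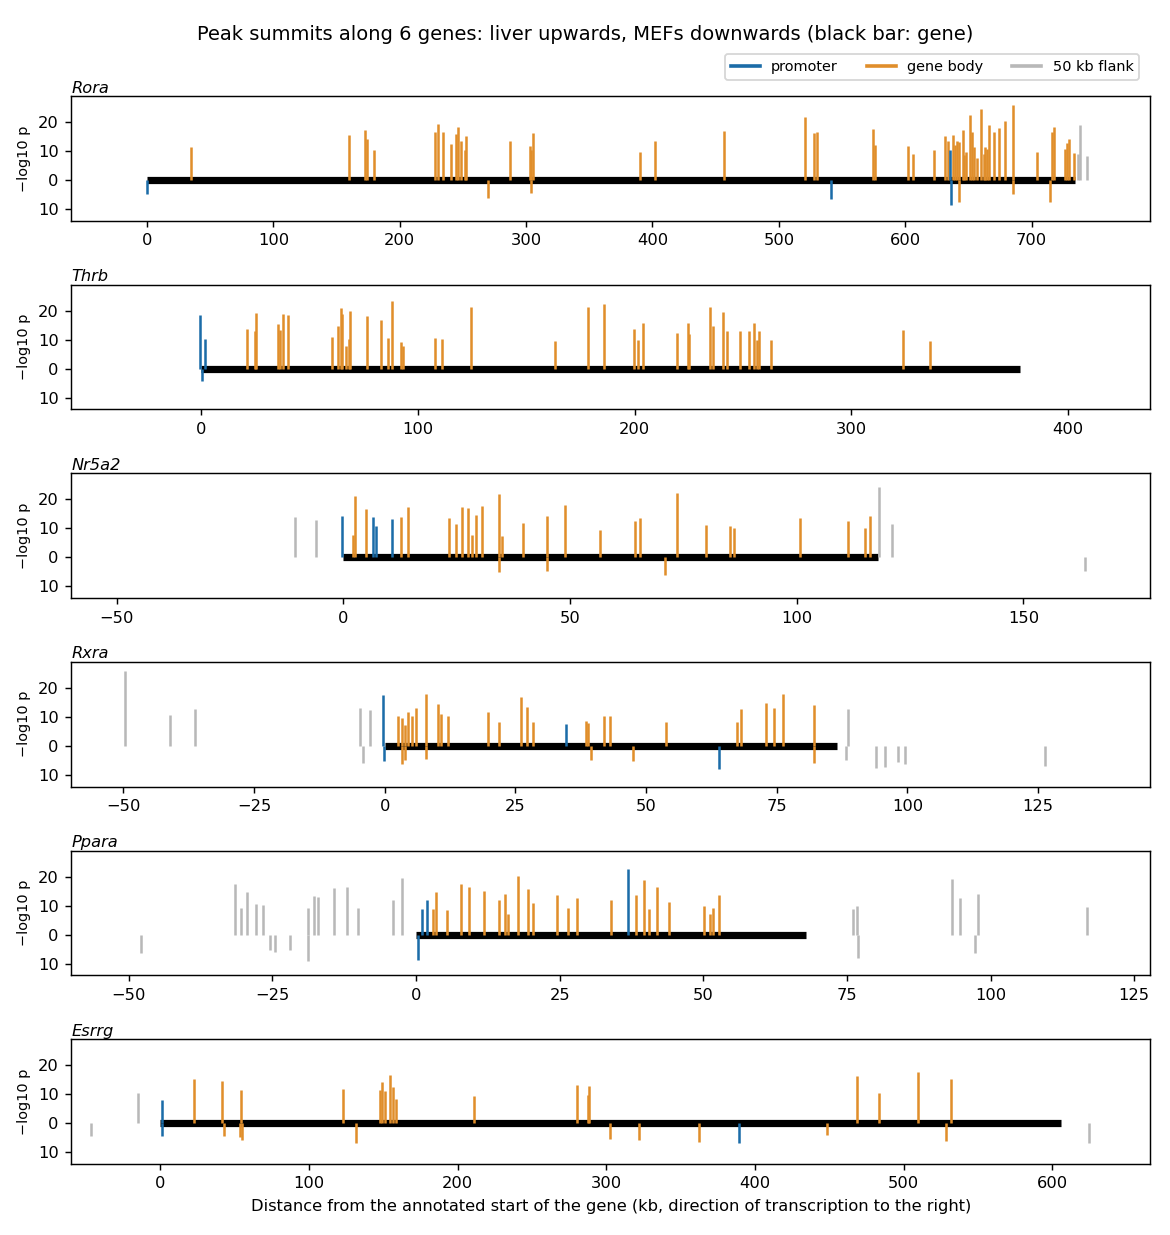
Peak summits along the 6 receptor genes with the most liver body peaks, as distance from the annotated gene start (kb), with liver peaks drawn upwards and MEF peaks downwards, line height giving the summit −log10 p of each list, and colour giving the class. The black bar is the gene. Liver lines outnumber MEF lines in the bodies of all 6 genes, which the choice by liver counts favours, and MEFs have 0 body peaks in Thrb and Ppara.

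At promoters, liver and MEF peaks coincided more often. Of 41 liver promoter peaks at receptor genes, 23 (56.1%) overlapped a MEF peak, close to the 60.3% over all liver promoter peaks. In gene bodies the share was 29 of 290 (10.0%), beside 9.13%. In flanks, which for receptor genes include promoters of other genes, it was 41 of 143 (28.7%), beside 14.7%. Seen from MEFs, 22 of 53 promoter peaks (41.5%, beside 34.5%) and 25 of 68 body peaks (36.8%, beside 14.9%) overlapped a liver peak. Many of these body peaks were in Rara (7 of its 11) and Rxra (5 of its 6). For MEF flank peaks the share was 36 of 156 (23.1%, beside 17.5%). The overlapping promoter peaks formed 24 pairs in 17 receptor genes. Their summits seldom coincided, since 5 of the 23 liver peaks had a MEF summit within 100 bp. The gap was 21 bp at the first promoter of Nr6a1, 29 bp at Esrra, 42 bp at Nr4a2, 54 bp at Nr3c2 and 77 bp at Rxra, and it reached 1518 bp at Ppara.

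Among the steroid hormone receptors, 3 of 5 had a promoter peak in liver, 4 in MEFs and 2 in Hep3B. Nr3c1 carried 4 promoter peaks in liver, the strongest at a summit −log10 p of 14.1 (percentile 68.1), 2 in MEFs (8.02, percentile 89) and 1 in Hep3B (5.62, percentile 23.4). All were at starts 28 to 33.1 kb into the gene, and none at its most 5′ start. Nr3c2, the mineralocorticoid receptor gene, ranked low in liver (8.2, percentile 4.46) and high in MEFs (9.17, percentile 96.9) and Hep3B (8.81, percentile 96.7). Esr1, which encodes the oestrogen receptor alpha, showed the opposite order, at 18.4 (percentile 91) in liver, 4.46 (percentile 8.72) in MEFs and no peak of any class in Hep3B. These values come from different promoters, since the liver peak lay 0.011 kb and the MEF peak 98.3 kb into the gene. Esr1 also held 15 body peaks in liver and 3 in MEFs. Esr2 had a promoter peak in MEFs alone (4.68, percentile 14). Pgr, the progesterone receptor gene, had 1 liver flank peak and nothing else.

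The receptors for thyroid hormone, retinoic acid and vitamin D had promoter peaks at 4 of 6 genes in liver, 6 in MEFs and 4 in Hep3B. Thrb ranked at percentile 91.3 in liver (18.5), 6.35 in MEFs (4.34) and 29.5 in Hep3B (5.81). Its paralog Thra had no promoter peak in liver, 4 in MEFs of which the strongest was at 4.96 (percentile 21.7), and 1 in Hep3B (5.45, percentile 18.7). The strongest peak in the flank of Thra in MEFs (9.66, percentile 98.4) and in Hep3B (9.21, percentile 98.8) was the promoter peak of the neighbouring clock gene Nr1d1. Rara was high in all lists, with 15.6 (percentile 78.4), 9.53 (percentile 98) and 8.67 (percentile 94.6), and had the most peaks of any receptor gene in MEFs, 20. Rarb stood at 8.83 (percentile 9.51) in liver, 6.77 (percentile 69) in MEFs and 6.82 (percentile 61.3) in Hep3B. Rarg had 1 promoter peak in liver, 4 in MEFs and none in Hep3B. Vdr, the vitamin D receptor gene, had no liver peak of any class and a weak promoter peak in MEFs (4.6, percentile 12.2).

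Several of these promoter peaks sat at internal starts, at similar distances into the mouse and human gene. For Rora, the strongest promoter peaks lay 635 kb into the gene in liver, 636 kb in MEFs and 637 kb in Hep3B. In Rara they lay 9.32, 9.81 and 9.01 kb into the gene. Rarb had its liver and MEF promoter peaks 244 kb into the mouse gene and its Hep3B peak 740 kb into the longer human annotation. These positions count from the annotated start of each gene, and whether the starts are orthologous was not tested. Of all promoter peaks at receptor genes, 21 of 41 in liver, 24 of 53 in MEFs and 12 of 28 in Hep3B lay 2 kb or more downstream of the gene start.

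The retinoid X receptors, the shared partners of many receptors, split by list. Rxra had a promoter peak in liver (17.5, percentile 87.8) and MEFs (7.8, percentile 86.6) and none in Hep3B. The MEF value is that of an internal start, 64 kb into the gene. At the first promoter, where the liver peak lay, the overlapping MEF peak stood at 5.2 (percentile 28.4). The strongest liver peak of Rxra lay 49.6 kb upstream (25.8, rank 140), nearer to its TSS than to that of any other protein-coding gene. Rxrb had no liver peak, a MEF promoter peak at 6.55 (percentile 64.3) and a Hep3B promoter peak at 9.39 (rank 119), which lies at the start it shares with SLC39A7. The RXRB flank peak shown above was higher still (10.3, rank 16). Rxrg had a promoter peak in liver alone, and that peak was weak (9.12, percentile 12.3).

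Of the 7 lipid and xenobiotic sensors, 5 had a promoter peak in liver, 4 in MEFs and 3 in Hep3B. Ppara held the strongest liver promoter peak of all receptor genes, at 22.7 (rank 761, percentile 98.5), 36.9 kb into the gene and 362 bp upstream of an internal TSS. Its other liver promoter peaks lay 1.09 and 1.87 kb into the gene, with 11.9 (percentile 47.6) as the higher value. The MEF peak lay 0.355 kb into the gene (8.9, percentile 95.6), and Hep3B had flank peaks alone. Ppard, a broadly expressed fatty acid receptor gene, was low in liver (9.8, percentile 20.5) and high in MEFs (9.02, percentile 96.2) and Hep3B (9.11, percentile 98.5). In MEFs it had 18 peaks, of which 14 were in the flanks, and the highest of these (9.34, percentile 97.4) was at the promoter of Fance.

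The liver X receptors, which sense oxysterols, also differed. Nr1h2 (LXR beta) had no liver peak of any class, yet its promoter gave the strongest member peak in MEFs (10.5, rank 121, percentile 99.7). In Hep3B, NR1H2 had 3 promoter peaks, of which those 46.7 and 47.2 kb into the annotated gene reached 7.54 (percentile 77.4) and 6.52 (percentile 51.9). Nr1h3 (LXR alpha) had promoter peaks in all lists, at 13 (percentile 58), 7.32 (percentile 79.5) and 7.72 (percentile 80.9), the Hep3B one in a stretch that also holds ACP2. Nr1i2 was bound at its promoter in liver alone (13.6, percentile 63.5) and had 8 body peaks there, up to 22. Nr1i3 had 2 liver promoter peaks, the stronger 924 bp upstream (18.5, percentile 91.3). Its 17 liver flank peaks each lay nearer to the TSS of another gene, among them Apoa2, Pcp4l1 and Tomm40l. Hnf4g had no peak of any class in any list.

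Among the 17 orphan receptors, promoter peaks were present at 8 in liver, at 12 in MEFs and at 10 in Hep3B cells. The estrogen-related receptor gene Esrra, a regulator of mitochondrial energy genes, stood at 15.3 (percentile 76.3) in liver and 8.88 (percentile 95.5) in MEFs. In Hep3B its promoter peak, at 11, had rank 5 in the whole list. Esrrg had a weak liver promoter peak (8.06, percentile 3.58), a MEF peak at 6.94 (percentile 72.4) and a Hep3B peak at 5.82 (percentile 29.6). That MEF peak lay 389 kb into the gene, and the MEF peak overlapping the liver one stood at 4.33 (percentile 5.91). Esrrg held 18 body peaks in liver and 9 in MEFs. Esrrb had body peaks, 1 in liver and 4 in MEFs, and none at its promoter.

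Nr5a2 had 4 promoter peaks in liver, 14.3 (percentile 69.5) at most, none in MEFs, and 2 in Hep3B, with 6.14 (percentile 39.7) at most. Its strongest liver peak lay in the flank just past the 3′ end (24.4, percentile 99.4). In Hep3B, NR5A2 held 4 body peaks and ranked 22nd of 3667 human genes of 100 kb or more by density, at 2.67 per 100 kb. Nr5a1, which encodes the adrenal and gonadal factor SF-1, had flank peaks alone, 2 in liver, 4 in MEFs and 1 in Hep3B cells.

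The immediate-early receptors had low-ranking or no promoter peaks in liver and higher-ranking ones in MEFs. Nr4a1 had none in liver and 8.33 (percentile 92) in MEFs. Nr4a2 had 9.24 (percentile 13.6), 7.31 (percentile 79.4) and 7.35 (percentile 74.2) in liver, MEFs and Hep3B, and Nr4a3 had 8.79 (percentile 9.13), 7.07 (percentile 74.9) and 6.21 (percentile 42.4). The promoter of Rora ranked at 30.8 in liver (10.6), 94.5 in MEFs (8.69) and 14.5 in Hep3B (5.3), although its gene body held the most peaks in liver. Its brain paralog Rorb had peaks in MEFs alone, with a promoter value of 6.76 (percentile 68.8).

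The testicular receptors Nr2c1 and Nr2c2 went opposite ways. Nr2c1 had a liver promoter peak at 20.1 (percentile 95.2), a MEF peak at 6.2 (percentile 55.7) and none in Hep3B. Its strongest liver peak (24.9, rank 256) lay 49.6 kb upstream in an intron of Fgd6. Nr2c2 had no liver peak of any class, 8.96 (percentile 95.9) in MEFs and 8.67 (percentile 94.6) in Hep3B. Nr2f1 and Nr2f6, of the COUP-TF family, had promoter peaks in MEFs and Hep3B and flank peaks alone in liver. Nr2e1 and Nr2e3, of brain and retina, had no promoter peak. Nr6a1, a germ cell receptor gene, was high in all lists, at 20.6 (percentile 96.1), 7.42 (percentile 81.2) and 8.88 (percentile 97.3), although the strongest liver peak lay 143 kb and the strongest MEF peak 188 kb into the gene. In Hep3B it also held 6 body peaks, the most of any receptor gene there.

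**Figure D5:**
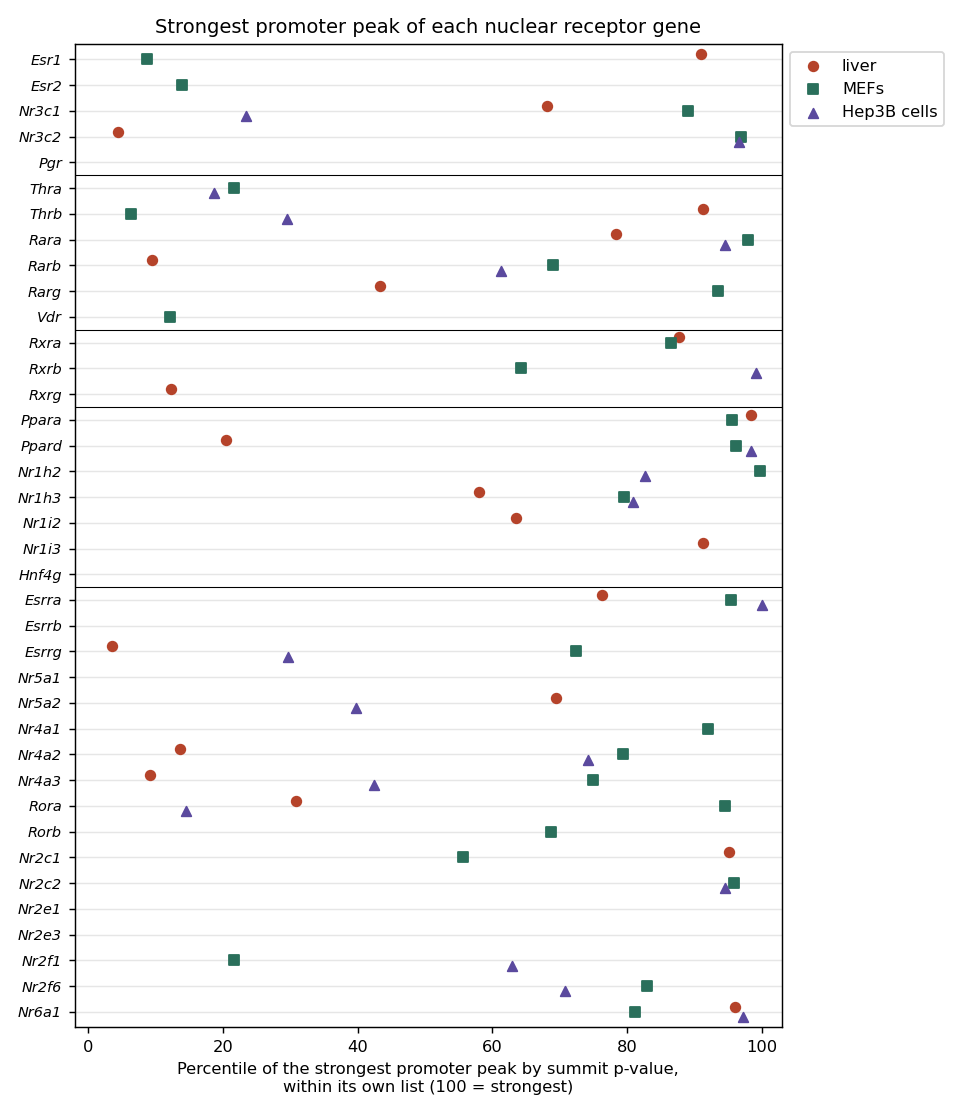
Percentile of the strongest promoter peak of each receptor gene within its own list, by summit −log10 p, for liver (circles), MEFs (squares) and Hep3B (triangles), with no symbol where a gene has no promoter peak. Nr3c2, Ppard, Nr4a2 and Nr4a3 have the liver symbol far to the left of the MEF symbol, and Esr1 and Thrb have it far to the right. For Ppard, Nr4a2 and Esr1 these symbols stand for different promoters in liver and MEFs.

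Ranks of promoter peaks thus differed between the mouse lists gene by gene. Of the 18 receptor genes with a promoter peak in liver and MEFs, 6 had the higher percentile in liver, namely Esr1, Thrb, Rxra, Ppara, Nr2c1 and Nr6a1, and 12 had it in MEFs. For several genes the strongest peaks sat at different promoters in the mouse lists. From the gene start, they lay at 0.011 kb in liver and 98.3 kb in MEFs for Esr1, and at −0.254 and 64 kb for Rxra. The same pairs were 39 and 0.022 kb for Ppard, 0.804 and 389 kb for Esrrg, and −0.291 and 8.98 kb for Nr4a2. The strongest peaks of Ppara and Nr6a1 also lay at different promoters. Where their promoter peaks overlapped, the order was the other way. Percentiles were then 47.6 and 8.22 in liver against 95.6 in MEFs for Ppara, and 1.04 against 77.3 for Nr6a1. Of the 13 bound at the promoter in all lists, 7 were below the 50th percentile in liver, 1 in MEFs and 5 in Hep3B. As a group, receptor promoter peaks ranked at a median percentile of 42.7 in liver (all promoter peaks 34.7), 58.4 in MEFs (65.5) and 65.6 in Hep3B (58.7). Receptor genes with a promoter peak had more GC around their first TSS than those without, at medians of 59.9% and 55% in liver, 61.2% and 51% in MEFs, and 61.7% and 55.2% in Hep3B. The same held over all genes, with 58.0% and 53.1%, 58.9% and 47.4%, and 61.3% and 56.4%.

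The receptors' own recognition hexamer was common at liver summits, but no more so at receptor genes than elsewhere. AGGTCA was present on either strand within 50 bp of 78 of 474 liver member summits (16.5%) and of 16.5% of all liver summits. In MEFs it was found at 16 of 276 (5.80%, beside 6.00%), and in Hep3B at 7 of 108 (6.48%, beside 4.99%). The liver matches were spread over 22 receptor genes, with the highest counts in Thrb (10 peaks), Ppara (9) and Rora (7). The extended form TCAAGGTCA, which contains AGGTCA, stood at the 4 liver summits shown above (0.844%, beside 0.700%) and at no member summit in MEFs (0%, beside 0.0987%) or Hep3B (0%, beside 0.0418%).

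Of the other letters, ATTGG was near the level of its list throughout. The PROX1 consensus parts AAGACG and AAGGCG were below their list in MEFs and Hep3B, with at most 3 member summits each. ATTGG was found at 14.3% of liver member summits (all 14.3%), 17.4% in MEFs (16.3%) and 15.7% in Hep3B (17.0%). AAGACG was found at 2.11% (1.43%), 0% (1.03%) and 0% (1.85%), AAGGCG at 1.90% (2.13%), 1.09% (3.04%) and 2.78% (5.95%), and ATCGAT at 1.05% (1.09%), 0.362% (0.323%) and 0% (0.306%). A match of letters is a description and does not show which factor held the site.

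The other nuclear receptor genes were counted in the same way. Of 10, 8 (80%) had a promoter peak in liver (all genes 28.3%), 5 (50%) in MEFs (56.5%) and 5 (50%) in Hep3B (45.2%). The highest in liver was Nr0b2, which encodes the bile acid induced repressor SHP, at a summit −log10 p of 34.7, above every promoter peak of the 38. Nr0b2, Hnf4a and Nr1h4, the receptors of bile acid and hepatocyte programmes, had promoter peaks in liver and none in MEFs. Of 13 genes for receptor coregulators, among them the corepressor Ncor1 and the coactivators Ncoa2 and Ppargc1a, 7 had a promoter peak in liver (53.8%), 13 in MEFs (100%) and 9 in Hep3B (69.2%), beside the same backgrounds.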

How the data were processed

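Groups were read from the labels of 22 samples. As given in the authors' methods and the submitters' processing notes, reads were trimmed with Trim Galore 0.6.6, aligned with Bowtie2 2.4.2 to mm10 or hg38, and turned into 1 consensus list per antibody group by Genrich 0.6.1. The command names no control library although sites are described relative to IgG, so the use of IgG is not known here. Each deposited list gives a score, an area under the significance curve (signal), the summit −log10 p and −log10 q, all set by the authors' caller and not normalized between lists. The area starts at 500 in liver and 200 elsewhere.

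Peaks were assigned with pandas 2.3.3 in Python 3.11.15 to GENCODE M21 and GENCODE 44 genes and counted beside all protein-coding genes or all peaks. The assignment was checked on toy peaks of known position. No peak ended beyond a chromosome of these builds. Flanks reached 50 kb, promoters 1 kb and motif windows 50 bp. No test was run, because each list pools its samples. Alternatives were other windows, TSS sets, thresholds and overlaps.

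Every receptor gene is accounted for by role. Full values went to the 5 members per list with the highest promoter peak, highest peak or most peaks, and to members with a promoter peak in all 3 lists or 1 list. The genes, lists and rules were chosen with earlier results of these data known. Gene sets matched by symbol between species. Some results at neighbouring and related genes are not reported here.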

Additional observations from a re-analysis of the deposited data

How the results depend on the processing

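No paired analysis was possible because each list pools the samples of its group, and for the same reason no replicate could be left out. Taking the 14369 strongest peaks of each list left 9 receptor genes with a promoter peak in liver (6.26% of all genes), 3 with one in all lists, 140 liver and 104 MEF peaks at receptor genes, and 1 promoter peak shared by liver and MEFs. Raising the area floor to that of liver left 121 MEF and 62 Hep3B peaks and 8 genes with a promoter peak in all lists. The most 5′ TSS alone left 14 genes in liver. Requiring the receptor gene to hold the nearest TSS left 150 MEF and 57 Hep3B peaks, and a 100 kb flank gave 165 Hep3B peaks. Summits within 100 bp left 5 shared promoter peaks. AGGTCA was found within 25 bp at 49 liver, 9 MEF and 3 Hep3B summits (9.48%, 3.04% and 2.66% of each list) and within 100 bp at 125 liver and 12 Hep3B summits (26% and 9.78%). These counts fall or rise by construction, with fewer peaks or wider windows. The share of receptor genes with a gene body peak, 50% in liver and 52.6% in MEFs, was 83.3% in each among genes of 100 kb or more (all such genes 62.5% and 76.4%), an alternative chosen after seeing the data. The other 77 values stayed within 1.5 times. The lack of replicates and of depth per sample limits every value.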
